A study of Caenorhabditis elegans with 4 samples.

Results

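Potassium channel genes of Caenorhabditis elegans were followed in RNA of wild-type worms at L4, the last larval stage. The set held 56 genes, measured by 58 probes, out of 14901 named genes tested. Members were all genes whose symbol in the platform annotation begins with twk, kqt, kvs, slo, shk, shl, shw or irk, together with egl-2 and egl-36, where a probe named only that gene. Of these, 40 belonged to the twk family and 16 to the other families. The same symbols fit 7 more genes of the RefSeq gene table, namely slo-1, shl-1, kvs-5, twk-45, twk-46, twk-48 and twk-49, which were not analysed here.

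Each of 4 preparations of L4 RNA was hybridised against a wild-type mixed reference RNA on an array with 2 channels, L4 in channel 2 and the reference in channel 1. The 4 arrays form 1 group of 1 genotype, and the labels name no treatment, sex, tissue or strain and do not give the composition of the reference. Whether the preparations are separate cultures is not in the labels. The p-values therefore measure only the spread between these 4 samples, which may be technical. The reference counts as 1 sample whose own spread is left out.

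Potassium channels let potassium ions leave the cell and so hold the resting potential and end action potentials. In nematodes they set the excitability of neurons and muscles. The twk genes encode tandem-pore leak channels, a family that is much enlarged in this animal. The shk, shl, shw, kvs and kqt families encode voltage-gated channels, as do the genes egl-2 and egl-36. Channels of the slo type combine voltage with intracellular ions as a signal, and the irk genes encode inward rectifiers, which pass inward current more easily than outward current. Many of these genes are known from a few neurons or muscle cells each, so RNA of whole preparations averages over cells that use them and cells that do not.

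Values are log2 ratios of L4 over the reference, with each array centred on its median over probes, so that 0 is the median probe of an array and 1 a doubling. The deposited table does not state the direction of the ratio. Positive was taken as likely more RNA in L4, since the array descriptions put L4 first and the reference second. "Higher" and "lower" rest on that reading throughout. A gene passed when its adjusted p in limma, corrected over all 19911 probes and genes tested, was under 0.05. Signal over background was not available for these arrays, so a ratio near 0 from a dim probe cannot be told from a ratio near 0 from a bright one. In bulk RNA, fewer cells of a type and less RNA per cell cannot be told apart.

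Most potassium channel genes had ratios close to 0. Of the 56 genes, 2 were higher in L4, twk-6 and kqt-2, and 6 were lower, twk-13, twk-7, twk-29, irk-3, twk-5 and kvs-4. The other 48 did not pass. Thus 3.57% of the potassium channel genes were higher and 10.7% lower, against 13.4% and 9.66% of the named genes in the whole fit. Read this way, the share called lower was near the background and the share called higher was below it. If the ratio runs the other way, the same shares change places, with 10.7% of the members against 9.66% of the named genes higher and 3.57% against 13.4% lower. In either direction 14.3% of the members were called, against 23.1% of named genes and 21.7% of all probes and genes (11.9% higher and 9.77% lower). The 2 higher members were 0 without preparation 1 or with each array centred on housekeeping genes, and 1 when preparation 2, 3 or 4 was left out. Fewer probes and genes were called higher overall in these settings as well, namely 8.36% without preparation 1 and 6.36% with housekeeping centring. Of the members with positive means, 4 had an unadjusted p under 0.05 in limma without preparation 1, and 2 had one with housekeeping centring. The 6 lower were 3 without preparation 1 or 3, when 6.07% and 4.83% of all probes and genes were called lower.

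The median log2 ratio of the 56 members was -0.03, against 0.05 for all named genes. In 37 members (66.1%) the mean lay within 0.5 of 0, against 54% of all named genes. The median SD between preparations was 0.39 for the members, against 0.47 for all named genes. By preparation, the median of the members was 0.00, -0.13, 0.05 and -0.03 in preparations 1 to 4. Of the 55 members with 4 values, 14 lay below 0 on all 4 arrays and 13 above 0 on all 4, and among named genes with 4 values these shares were 22.6% and 24.6%.

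**Figure D1:**
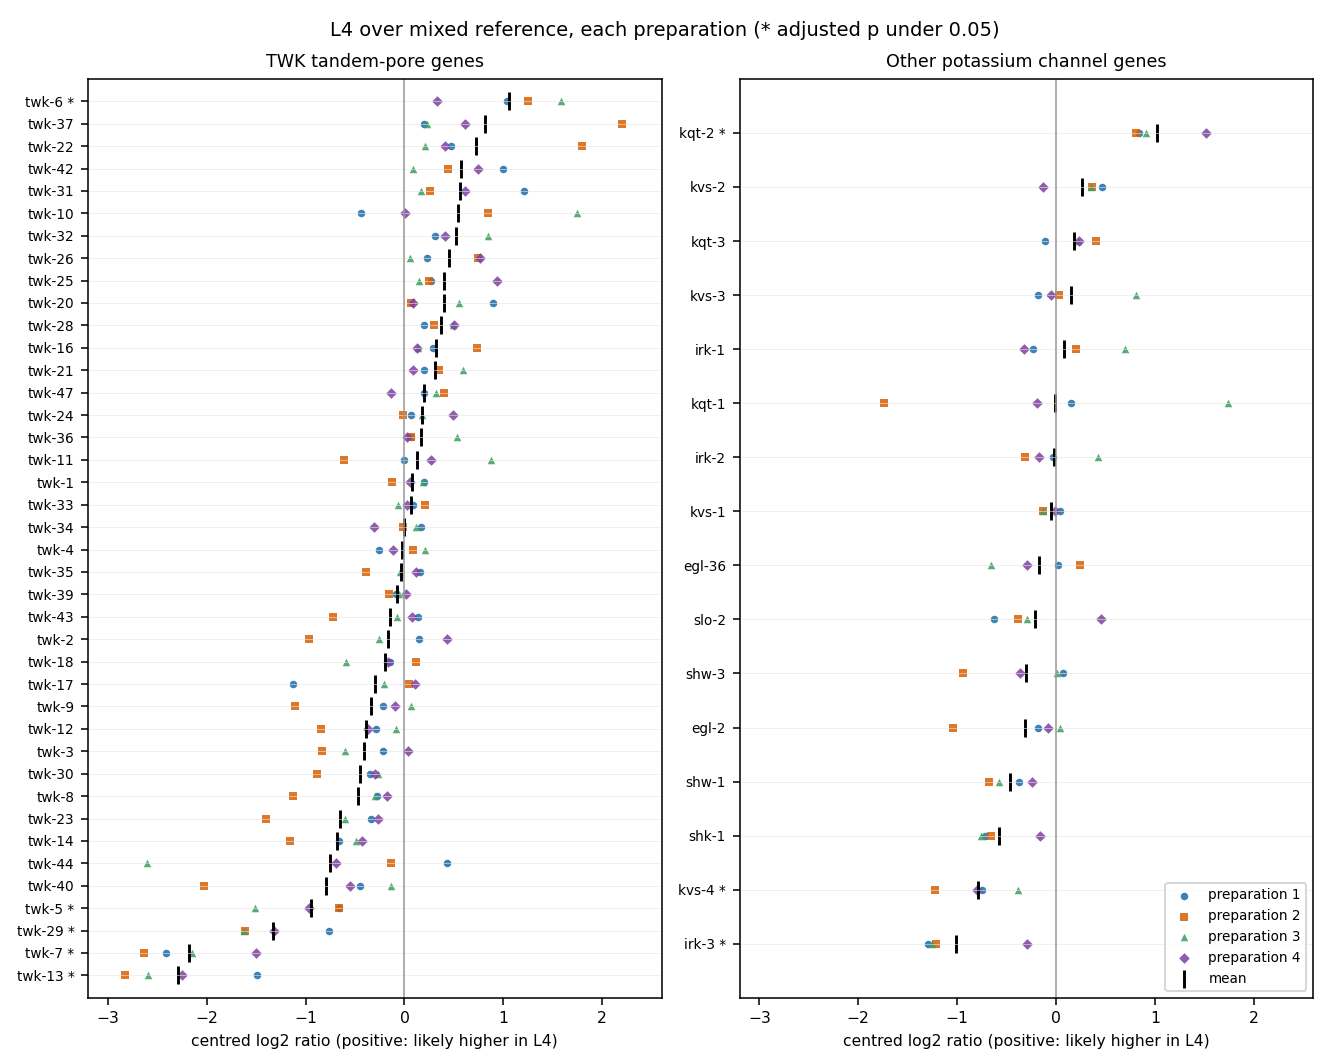
Centred log2 ratio of L4 over the mixed reference (x axis, log2 units) for each of the 40 twk genes (left) and the 16 other potassium channel genes (right), ordered by mean. Coloured symbols are the 4 preparations, black bars their mean, and an asterisk marks the 8 genes with an adjusted p under 0.05. Most genes straddle or hug 0, while twk-13 and twk-7 lie at -1.49 or lower on every array.

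The largest ratios in the set were those of a pair of twk genes below 0. In twk-13, a tandem-pore channel gene, the log2 ratio was -1.49, -2.82, -2.59 and -2.25 in preparations 1 to 4. The mean was -2.29 ± 0.27 (SE, n = 4), a 4.88-fold lower level in L4 (adjusted p = 0.00128 in limma), and the gene ranked 152 from the bottom among the 14901 named genes, or as far from the top if the ratio runs the other way. Every preparation was well below 0, with preparation 1 the least low.

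In twk-7, a tandem-pore channel gene linked to locomotor activity, the log2 ratio was -2.41, -2.63, -2.15 and -1.5 in preparations 1 to 4. Its mean was -2.17 ± 0.25 (SE, n = 4), a 4.51-fold lower level in L4 (adjusted p = 0.00118 in limma), at rank 177 from the same end. All 4 arrays lay well below 0, preparation 4 being the least low, and the SD of 0.49 was near the median of all named genes. The 95% intervals of twk-13 (-2.90 to -1.68) and twk-7 (-2.74 to -1.60) overlap almost wholly, so their order is not resolved.

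The third tandem-pore gene, twk-29, had log2 ratios of -0.76, -1.61, -1.63 and -1.32 in preparations 1 to 4. It averaged -1.33 ± 0.23 (SE, n = 4), a 2.51-fold lower level in L4 (adjusted p = 0.00607 in limma). Preparation 1 was the least low, as in twk-13. These 3 genes passed under each of the 11 alternative settings that were run. The highest adjusted p in limma was 0.0171 for twk-13, 0.0151 for twk-7 and 0.036 for twk-29. Each of these genes has 1 probe and 4 values. The settings on missing values, single probes and robust shrinkage therefore used the same log2 ratios and could hardly change the call.

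The fourth twk gene called lower, twk-5, had log2 ratios of -0.66, -0.66, -1.51 and -0.96. Its mean was -0.95 ± 0.23 (SE, n = 4), with an adjusted p of 0.0227 in limma. All 4 arrays lay below 0, with preparation 3 the lowest. The call was lost without preparation 1, 3 or 4 (adjusted p = 0.0605, 0.0685 and 0.0633).

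Only twk-6 was called higher in the twk family. Its log2 ratios were 1.04, 1.25, 1.59 and 0.33 in preparations 1 to 4, with a mean of 1.05 ± 0.26 (SE, n = 4) and an adjusted p of 0.0218 in limma. Preparation 4 stood well below the other three, though above 0. Its call was lost without preparation 1, 2 or 3 (adjusted p = 0.0724, 0.0684 and 0.0837) or with housekeeping centring (adjusted p = 0.117).

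The other 35 twk genes did not pass. In the family as a whole, 21 of 40 means lay below 0 and 19 above, with a median of -0.01, and 25 lay within 0.5 of 0. Of the 40 genes, 12 had an unadjusted p under 0.05 in limma, or 30%, against 38.6% of all named genes.

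Among these genes the largest positive means were those of twk-37 and twk-22, and both rested mostly on 1 array. In twk-37 the log2 ratio was 0.20, 2.20, 0.23 and 0.61 in preparations 1 to 4 (mean 0.81, adjusted p = 0.132 in limma). In twk-22 it was 0.47, 1.80, 0.21 and 0.41 (mean 0.72, adjusted p = 0.117). Preparation 2 was the highest in both genes, far above the other three arrays.

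Several genes had negative means that missed the threshold. In twk-14 the log2 ratio was -0.67, -1.16, -0.49 and -0.43, with a mean of -0.69 ± 0.22 (SE, n = 4) and an adjusted p of 0.0608 in limma. It lay below 0 on every array and passed with values as deposited (adjusted p = 0.0464) and with the arrays brought to a common scale (adjusted p = 0.048). In twk-40, which encodes a leak channel of the motor circuit, the log2 ratio was -0.45, -2.02, -0.14 and -0.55 (mean -0.79, adjusted p = 0.116), and in twk-23 it was -0.34, -1.40, -0.60 and -0.27 (mean -0.65, adjusted p = 0.101). Both were below 0 on every array, with preparation 2 the lowest by a wide margin.

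The widest spread in the twk family belonged to twk-44, with log2 ratios of 0.43, -0.14, -2.60 and -0.69 and an SD of 1.31. Here preparation 3 was the low one, and the 95% interval of the mean ran from -1.77 to 0.27. In twk-10 the log2 ratio was -0.44, 0.85, 1.75 and 0.01, with an SD of 0.97 and an interval from -0.27 to 1.35. The arrays of both genes fell on either side of 0, with preparation 3 the extreme one in each.

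Other twk genes varied little between arrays. The gene twk-39 had log2 ratios of -0.09, -0.15, -0.06 and 0.01, with an SD of 0.07, and twk-33 had 0.09, 0.21, -0.07 and 0.02, with an SD of 0.11. For twk-18, which encodes a leak channel of body wall muscle, the log2 ratio was -0.15, 0.12, -0.59 and -0.16. The 95% interval of its mean ran from -0.70 to 0.30, so means within those limits were not excluded here.

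The gene twk-28 lay above 0 on every array at 0.20, 0.29, 0.49 and 0.50, with a mean of 0.37 and an adjusted p of 0.221 in limma. Also above 0 on all 4 arrays without passing were twk-42 (mean 0.57), twk-31 (0.56), twk-26 (0.45), twk-25 (0.40), twk-20 (0.40), twk-16 (0.32), twk-21 (0.31) and twk-36 (0.17). In twk-32 the value of preparation 2 was missing, and its log2 ratios of 0.31, 0.84 and 0.41 in preparations 1, 3 and 4 had a mean of 0.52 (adjusted p = 0.189, n = 3).

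Both genes with more than 1 probe were twk genes. The probes of twk-20 had means of 0.15 ± 0.42 and 0.65 ± 0.81 (SD, n = 4), and in preparation 1 they read -0.07 and 1.86. The probes of twk-9 had means of -0.19 ± 0.54 and -0.49 ± 0.65 (SD, n = 4). Within each pair the means had the same sign, while single arrays differed widely.

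Some twk genes are neighbours in the RefSeq gene order. With 0 protein-coding genes between them, twk-21 and twk-22 had mean log2 ratios of 0.31 and 0.72. The genes twk-33, twk-42 and twk-36 follow one another with 2 and 1 genes between them and had means of 0.06, 0.57 and 0.17. The genes twk-26 and twk-16, with 3 genes between them, had means of 0.45 and 0.32. None of these 7 genes passed, and all 7 means were above 0. Means above 0 were found in 24 of the 56 members and in 7876 of the 14901 named genes. Whether neighbours share a direction was not tested. No other members lay within 5 genes of each other.

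Voltage-gated channel genes of the Shaker and Shaw types all had negative means, and none passed in limma. The Shaker gene shk-1, which encodes a delayed rectifier of neurons and muscle, had log2 ratios of -0.72, -0.66, -0.76 and -0.16, with a mean of -0.57 ± 0.22 (SE, n = 4, adjusted p = 0.0929). Preparations 1 to 3 gave nearly the same value and preparation 4 lay nearer to 0. The gene shw-1 had -0.37, -0.67, -0.58 and -0.25 (mean -0.47, adjusted p = 0.141).

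The gene shw-3 had log2 ratios of 0.07, -0.94, 0.01 and -0.37 (mean -0.31, adjusted p = 0.389 in limma). In egl-36, a Shaw-type gene known from egg-laying and enteric muscle, the log2 ratio was 0.02, 0.24, -0.66 and -0.30 (mean -0.17, adjusted p = 0.616). While shk-1 and shw-1 were below 0 on every array, shw-3 and egl-36 fell on both sides. Of these 4 genes, 1 had an unadjusted p under 0.05, shk-1, and under robust shrinkage none passed either.

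The EAG-type gene egl-2, in which a gain of function impairs egg laying and defecation, had log2 ratios of -0.18, -1.05, 0.04 and -0.09. The mean was -0.32 with a 95% interval from -0.89 to 0.25 (adjusted p = 0.382 in limma). Preparation 2 alone was far from 0.

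Of the 4 kvs genes, which encode voltage-gated subunits, kvs-4 was lower. Its log2 ratios were -0.75, -1.23, -0.38 and -0.80, with a mean of -0.79 ± 0.22 (SE, n = 4) and an adjusted p of 0.0391 in limma. All 4 arrays were below 0, but it did not pass when any 1 preparation was left out (adjusted p = 0.14, 0.124, 0.0501 and 0.0928 without preparations 1 to 4) or with housekeeping centring (adjusted p = 0.123). The gene kvs-1, whose channel works with small accessory subunits of the mps family, had 0.04, -0.13, -0.13 and -0.01, among the tightest sets of values with an SD of 0.09. The means of kvs-2 and kvs-3 were 0.26 and 0.15, and neither passed (adjusted p = 0.404 and 0.678).

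The 3 kqt genes, which encode channels of the KCNQ type, differed from one another. In kqt-2, known from the intestine, the log2 ratio was 0.84, 0.81, 0.90 and 1.52 in preparations 1 to 4. The mean was 1.02 ± 0.22 (SE, n = 4), a 2.02-fold higher level in L4 (adjusted p = 0.0149 in limma). Preparations 1 to 3 lay within 0.1 of each other and preparation 4 was higher. The gene just missed the threshold when preparation 1 or 4 was left out (adjusted p = 0.0522 and 0.0517) and under housekeeping centring (adjusted p = 0.0508).

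The gene kqt-3 had log2 ratios of -0.11, 0.40, 0.22 and 0.24 (mean 0.19, adjusted p = 0.55 in limma). In kqt-1, known from pharyngeal muscle and sensory neurons, the log2 ratio was 0.16, -1.74, 1.74 and -0.20. This was the widest spread of the 56 genes, with an SD of 1.43, larger than that of 97.8% of all named genes. Preparations 2 and 3 lay equally far from 0 in opposite directions, and the mean of -0.01 had a 95% interval from -1.10 to 1.08.

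The only slo gene measured was slo-2, which encodes a large-conductance channel. Its log2 ratios were -0.63, -0.38, -0.30 and 0.45, with a mean of -0.21 and an adjusted p of 0.554 in limma. Preparation 4 had the opposite sign to the other three.

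Of the 3 inward rectifier genes, irk-3 was lower. Its log2 ratios were -1.30, -1.22, -1.25 and -0.29, with a mean of -1.02 ± 0.25 (SE, n = 4), a 2.02-fold lower level in L4, and an adjusted p of 0.0219 in limma. Preparations 1 to 3 agreed within 0.1, while preparation 4 was close to 0. It missed the threshold once preparation 1, 2 or 3 was left out (adjusted p = 0.102, 0.069 and 0.0839).

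In irk-1, which acts in the egg-laying motor neurons, the log2 ratio was -0.23, 0.20, 0.70 and -0.33 (mean 0.09, adjusted p = 0.827 in limma). In irk-2 it was -0.03, -0.32, 0.43 and -0.17 (mean -0.02, adjusted p = 0.952). Each fell on both sides of 0. A further probe, which names irk-2 together with another gene, was not used here.

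**Figure D2:**
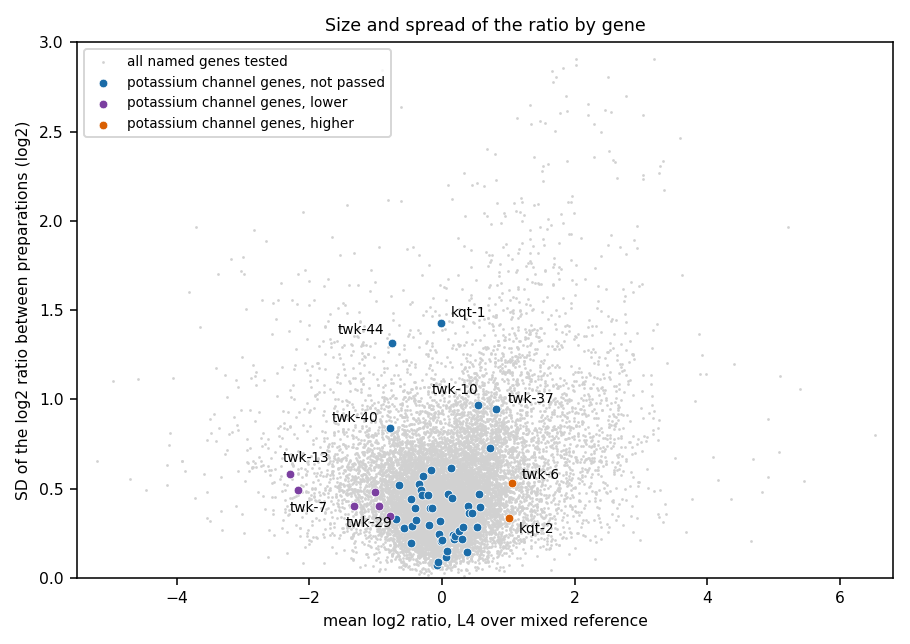
Mean log2 ratio of L4 over the mixed reference (x axis) against the SD between the preparations (y axis, log2 units) for each gene. Grey points are all named genes tested (11 lie outside the axes), and coloured points the potassium channel genes. The 6 lower genes (purple) and the 2 higher genes (orange) have SDs from 0.34 to 0.58, while the SDs of kqt-1 and twk-44 exceed 1.3.

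The preparations did not contribute evenly to the extremes. Preparation 2 held the lowest value of 25 of the 55 members with 4 values, or 45.5%, against 29.7% of all named genes. Preparation 3 held the lowest value of 13 members (23.6%, against 33.8%), preparation 1 of 9 (16.4%, against 11.9%) and preparation 4 of 8 (14.5%, against 24.7%). These shares are descriptions, since genes measured on the same array are not independent.

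For the members, the SD of the log2 ratio over genes was 0.62, 0.96, 0.87 and 0.59 in preparations 1 to 4, so preparations 2 and 3 were the wider. Over all probes as deposited the order differed slightly, at 0.95, 1.19, 1.21 and 0.85. Across members, the correlation between arrays ran from 0.53 for preparations 2 and 3 to 0.71 for preparations 2 and 4. Over all probes it ran from 0.56 for preparations 2 and 4 to 0.72 for preparations 1 and 2. These correlations are across genes, and all arrays share the same reference RNA.

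Potassium channel genes with other symbols than the members, and genes that work with potassium channels, had medians further below 0 than that of the members. Of 9 further potassium channel genes, 1 was lower (11.1%) and 0 higher, against 9.66% and 13.4% of all named genes. All 9 means were below 0 with a median of -0.35, while 47.1% of all named genes had a mean below 0. The gene called lower was sup-9, a tandem-pore channel gene that bears another kind of symbol. It had log2 ratios of -0.98, -1.25, -0.67 and -0.38 and a mean of -0.82 ± 0.23 (SE, n = 4, adjusted p = 0.0366 in limma). Its adjusted p was 0.161, 0.117 and 0.0792 without preparations 1, 2 and 3, above the threshold, as it was with housekeeping centring (0.0868). The small-conductance channel gene kcnl-2 had a mean of -0.83 and an adjusted p of 0.0502.

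Of 11 accessory and regulator genes, 2 were lower (18.2%) and 0 higher, against 9.66% and 13.4% of all named genes, with a median of -0.25. The dystrobrevin gene dyb-1, part of the complex that positions a slo channel in muscle, had log2 ratios of -0.91, -0.98, -1.31 and -1.14 and a mean of -1.08 ± 0.21 (SE, n = 4, adjusted p = 0.00827 in limma). It was low on all 4 arrays and passed under each of the 11 alternative settings. Those on missing values and robust shrinkage used the same log2 ratios. The catulin gene ctn-1, whose product also bears on slo channel placement, had -1.16, -1.63, -1.69 and -0.27 (mean -1.19, adjusted p = 0.02). This call was lost without preparation 1, 2 or 3 (adjusted p = 0.0551, 0.0696 and 0.0899).

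Among channels of other ions, 0 of 11 voltage-gated calcium and sodium leak channel genes and 0 of 4 cyclic nucleotide-gated channel genes passed in limma. Of all named genes 23.1% passed, and lists this short say little beside that share. At an unadjusted p under 0.05 there were 2 and 0, and under robust shrinkage none of the 4 genes named from these lists passed. Among the calcium and sodium leak channel genes the largest mean was that of unc-2, a calcium channel of synapses, at -0.58 (adjusted p = 0.0882), followed by ccb-2 at -0.52. Among the cyclic nucleotide-gated channel genes it was cng-1 at 0.35 (adjusted p = 0.33), followed by che-6 at 0.29. Of 6 CLC chloride channel genes, 1 was lower (16.7%, against 9.66% of all named genes). It was clh-2 at -0.71 (adjusted p = 0.0412), which did not pass when any 1 preparation was left out (adjusted p from 0.0721 to 0.149). The gene clh-3 was at -0.65 (adjusted p = 0.0585).

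Of 28 DEG/ENaC channel genes, a family of sodium channels that includes touch receptors, 4 were higher and 3 lower. Those higher included acd-5 at 1.25 ± 0.25, acd-1 at 1.24 ± 0.31 and delm-2 at 1.22 ± 0.21 (SE, n = 4), and those lower included asic-2 at -1.36 ± 0.31. Of 21 innexin genes, which encode gap junction subunits, 1 was higher and 4 were lower, with inx-3 at -2.01 ± 0.24, unc-7 at -1.27 ± 0.26, inx-8 at -1.12 ± 0.25 and inx-6 at -0.94 ± 0.27. Of these 8 genes, acd-5, delm-2, inx-3 and unc-7 passed whichever preparation was left out, although acd-5 did not pass with housekeeping centring (adjusted p = 0.0695 in limma), nor did acd-1 (0.0947), asic-2 (0.0723) and inx-6 (0.0693). The calls of acd-1 and asic-2 were lost without preparation 2, 3 or 4, that of inx-8 without preparation 3 or 4, and that of inx-6 without preparation 1, 2 or 3. The called shares of 25% of the DEG/ENaC genes and 23.8% of the innexin genes were near the 23.1% of all named genes. Over all 90 other channel and regulator genes, 5.56% were higher and 12.2% lower, against 3.57% and 10.7% of the potassium channel genes and 13.4% and 9.66% of all named genes. The shares were not tested against each other. The 5 higher were 3 without preparation 1 or 3 and 1 with housekeeping centring, and the 11 lower were 5 without preparation 1, 4 without preparation 2 or 3, and 6 with housekeeping centring.

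**Figure D3:**
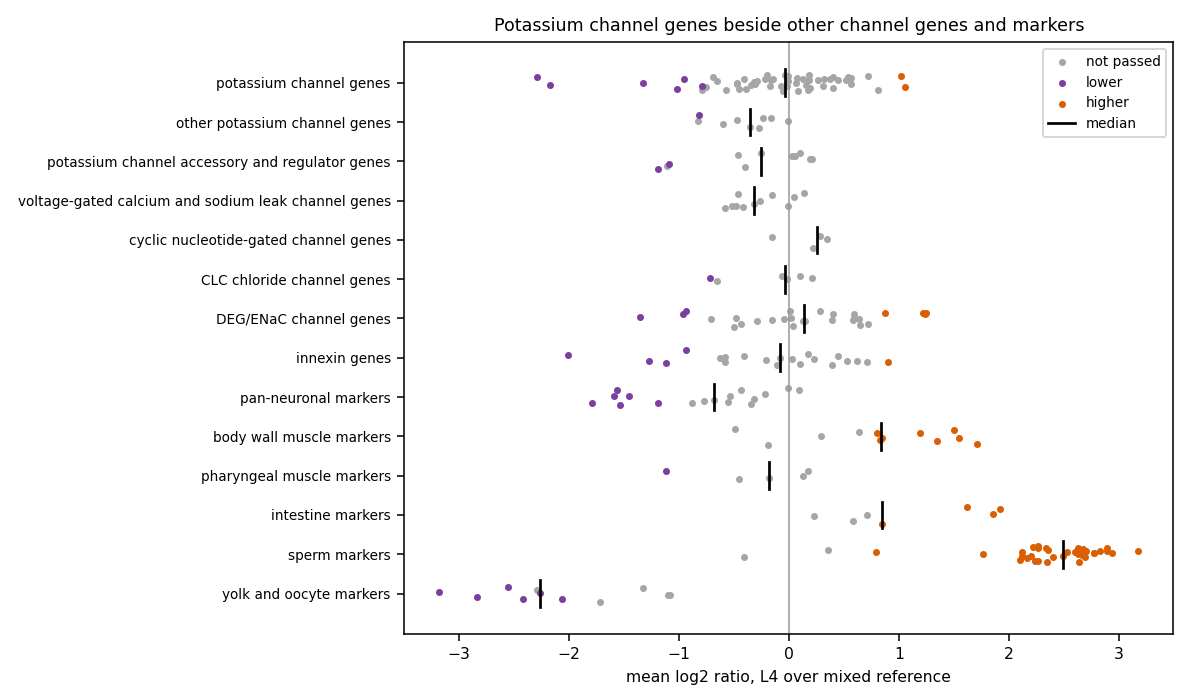
Mean log2 ratio of L4 over the mixed reference (x axis) for every gene of the potassium channel set, the other channel lists and the marker lists (rows). Each point is a gene, purple where lower, orange where higher and grey where it did not pass, and the black bar is the list's median. The potassium channel genes centre at -0.03, the pan-neuronal markers at -0.68 and the body wall muscle markers at 0.84.

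Markers of the cell types that use potassium channels moved in different directions. Of 17 pan-neuronal markers, 6 were lower, 0 higher and 11 did not pass, with egl-3 at -1.79, ric-4 at -1.59, egl-21 at -1.56 and sng-1 at -1.53, and means from -1.79 to 0.09. The call of sng-1 was lost without preparation 3. The median of that list was -0.50, -1.26, -1.06 and -0.33 in preparations 1 to 4. Of 12 body wall muscle markers, 8 were higher, 0 lower and 4 did not pass. The largest means were those of dim-1 at 1.71, ttn-1 at 1.55, myo-3 at 1.5 and unc-27 at 1.35. The lowest was -0.49 in hlh-1, which lay below 0 on all 4 arrays, and unc-60 was at -0.19. The list's median was 0.74, 1.16, 0.76 and 0.94. The 8 were 5 without preparation 1, 2 or 4 or with housekeeping centring.

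Of 5 pharyngeal muscle markers, 1 was lower, tnc-2 at -1.12, which did not pass without preparation 2 or 3, and ceh-22 was at -0.46. The list's median was -0.18, and its means lay on both sides of 0, with myo-1 at 0.17 and myo-2 at 0.12. Of 7 intestine markers, 4 were higher, act-5, pept-1, ges-1 and ifb-2, from 0.84 to 1.92, and the call of ifb-2 was lost without preparation 1, 2 or 4. Called in either direction were 35.3% of the pan-neuronal and 66.7% of the body wall muscle markers. For the pharyngeal muscle and intestine markers the shares were 20% and 57.1%, against 23.1% of all named genes. The part of these cell types in the ratios of the potassium channel genes was not tested.

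Stage markers bear on the label. Of 37 sperm genes, which hermaphrodites transcribe around L4, 35 were higher, 0 lower and 2 did not pass, with a median of 2.49. The largest means were those of ssp-16 at 3.17 on 3 arrays, and of msp-77, msp-36 and msp-56 at 2.94, 2.89 and 2.89. The lowest was -0.40 in msp-38, which lay below 0 on all 4 arrays. Of 11 yolk and oocyte genes, which adult hermaphrodites transcribe, 6 were lower and 0 higher, with vit-5 at -3.18, vit-2 at -2.83, perm-2 at -2.55 and pos-1 at -2.42. Leaving out preparation 3 brought the count of lower genes in this list to 0 in limma, although 6 had an unadjusted p under 0.05, and leaving out preparation 2 brought it to 11. The sperm median was 3.37, 3.45, 2.10 and 1.16 in preparations 1 to 4. The yolk and oocyte median was -1.62, -0.33, -3.18 and -3.10, so the preparations differed in these genes as well. Called in either direction were 94.6% of the sperm genes and 54.5% of the yolk and oocyte genes, against 23.1% of all named genes.

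**Figure D4:**
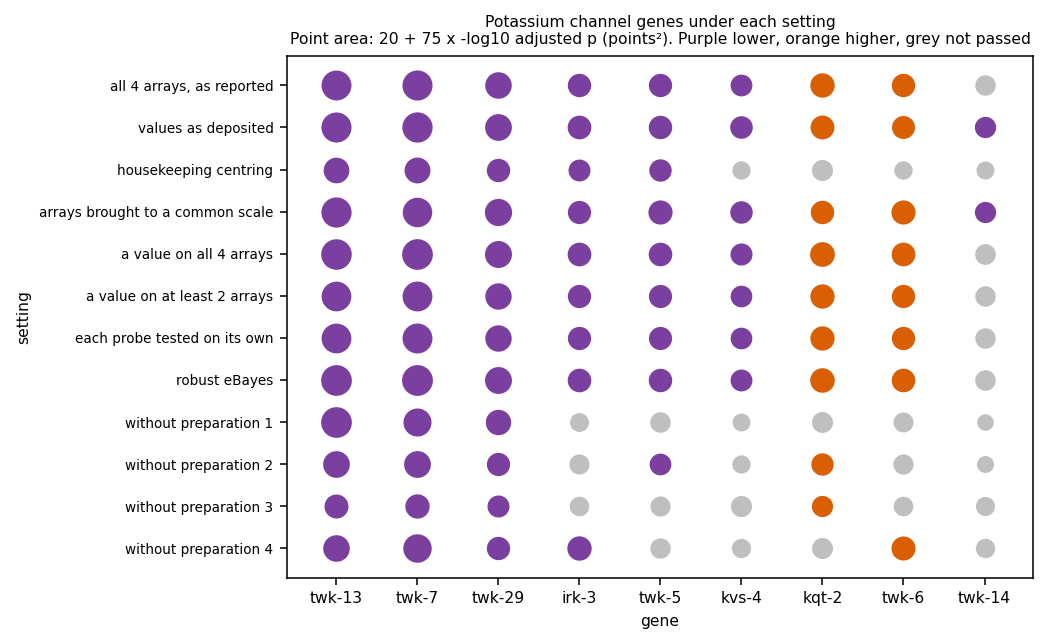
Adjusted p of the 8 called potassium channel genes and of twk-14 (columns) under each setting (rows), with the area of a point growing with -log10 of the adjusted p. Purple and orange points passed as lower and higher, and grey points did not pass. The genes twk-13, twk-7 and twk-29 passed in every row, while kvs-4 was grey whenever a preparation was left out.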

How the data were processed

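The deposited file lists 21632 probes, of which 21132, 21084, 21252 and 21489 had a value in preparations 1 to 4. No unit is stated by the authors, nor the scanner, dyes, background correction or normalization. Deposited values were taken as log2 ratios. When 2 was raised to the negative values, 100% of the results on every array were multiples of 0.001 to within 0.02 of a step, against at most 5.93% for natural logarithms. Column medians as deposited were -0.047, 0.007, -0.1 and -0.042, and whether the authors centred them is unknown, as is the direction. Genes were named from the platform annotation, in which 16450 probes had 1 gene, 247 several and 4935 none. All 56 members matched the RefSeq gene table of assembly WBcel235, used for names and gene order only.

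Each array was centred on its median, probes of a gene were averaged, and a value was required on at least 3 of 4 arrays. All 56 members met this. A two-sided limma test of the mean against 0 (version 3.58.1, lmFit and eBayes, R 4.3.3) was followed by Benjamini-Hochberg adjustment. SE and 95% intervals are limma's moderated ones, with 5.15 prior degrees of freedom, and SD is the plain SD. The calculation was tested on simulated data. Python 3.11.15 with matplotlib 3.10.9 drew the figures. Alternatives were other centring, a common scale, other limits on missing values, single probes, robust shrinkage and leaving out each preparation. The members, lists and tests were chosen with earlier results of these data known. Every member could be named, with full statistics for those that passed, and up to 4 passing genes of each other list, or the 2 with the largest absolute mean where fewer than 2 passed. Precision is limited by the number of arrays.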

Additional observations from a re-analysis of the deposited data

Results flagged for a closer look

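Of the 55 members with 4 values, 8 (14.5%) had 1 preparation whose gap to the nearest of the others took up more of the gene's whole range than Dixon's 95% critical value for 4 values allows, which chance does in about 1 of 20 groups. Over all named genes with 4 values this share was 5.78%. The members' share was not tested against it, and genes of the same array are not independent. Preparation 4 was the one apart in 4 of them. In irk-3 it was at -0.29, against -1.30 to -1.22 in the other three, in kqt-2 at 1.52, against 0.81 to 0.90, in shk-1 at -0.16, against -0.76 to -0.66, and in twk-25 at 0.94, against 0.15 to 0.26. Preparation 2 was apart in 3: in twk-22 it was at 1.80, against 0.21 to 0.47, in twk-8 at -1.12, against -0.30 to -0.17, and in twk-30 at -0.89, against -0.35 to -0.27. Preparation 3 was apart in twk-36, at 0.53, against 0.02 to 0.07. Of the 8 called genes, irk-3 and kqt-2 are among these.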

How the results depend on the processing

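Of 8 called potassium channel genes, all 8 were called again with values as deposited, with a common scale, with a value on all 4 or on at least 2 arrays, with single probes and with robust shrinkage. Each of the 8 has 1 probe and 4 values. The settings on missing values, single probes and robust shrinkage therefore used the same log2 ratios and could hardly change these calls. With values as deposited and with a common scale, twk-14 was called lower as well. With housekeeping centring 5 were called, 0 higher and 5 lower, while the share called over all probes and genes was 13.1%, against 21.7%. Leaving out 1 preparation in turn, the number called ran from 3 to 5, with 0 to 1 higher and 3 to 4 lower, and fewer arrays were then in the fit, in which 11.6% to 18.2% of all probes and genes were called. Among the other channel and regulator genes, the 5 higher and 11 lower became 1 and 6 with housekeeping centring, and leaving out 1 preparation gave 3 to 4 higher and 4 to 9 lower. The median of the members ran from -0.10 to 0.03 over the alternatives. Housekeeping centring moved the median of everything tested by -0.07, while it took 0.06, 0.32, -0.46 and 0.36 off the values of preparations 1 to 4. Over the 56 members and 11 alternatives, 595 results stayed on their side of the threshold or did not pass either way, 18 lost their call, 2 gained one and 0 were called with opposite signs. The gene twk-32, missing on 1 array, had no result where a value on all 4 was required. No paired analysis was possible because the arrays form 1 group. Signal over background was not analysed here, so dim probes could not be set apart.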
